A study of Mus musculus with 18 samples.

Results

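The 7 genes described here belong to the mouse MHC class II system and were followed through the epithelium of the ileum, among 32286 gene features that were counted. They are Cd74, H2-Aa, H2-Ab1, H2-Eb1, H2-DMa, H2-DMb1 and Ciita, and the set is defined by gene name, with earlier results of these data known. Single-cell RNA-seq libraries were available from 4 groups of 2 libraries each. The Lgr5+ WT mice carried Lgr5-GFP-CreERT2, a knock-in allele that expresses GFP and tamoxifen-inducible Cre from the Lgr5 locus of intestinal stem cells. The Lgr5+ Setdb1-KO mice were Lgr5-GFP-CreERT2/Setdb1lox/lox, in which Cre removes exon 3 of Setdb1, a histone H3 lysine 9 methyltransferase. The lineage-traced WT mice were Lgr5-GFP-CreERT2/nTnG and the lineage-traced Setdb1-KO mice were Lgr5-GFP-CreERT2/Setdb1lox/lox/nTnG. The nTnG reporter keeps GFP on in the progeny of cells in which Cre has acted. All mice, WT included, were on the C57Bl6 background, were 60 to 65 days old, and had been given tamoxifen (70 mg/kg, in corn oil) by a single intraperitoneal injection 5 days earlier. GFP+ cells of the ileal crypts were sorted in every group. The knock-in allele is silenced at random in part of the crypts, so that only some crypts are labeled. By the study's account the mature cells of the Lgr5+ sort, enterocytes and secretory cells included, came with it through the gate and need not be GFP+, so enterocyte-like cells of the Lgr5+ Setdb1-KO libraries need not have lost Setdb1.

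MHC class II molecules are pairs of an alpha and a beta chain that display peptides from the endosome to CD4+ T cells. Cd74, the invariant chain, holds the newly made pairs until they reach the endosome, and H2-DM exchanges its remnant for a peptide. Ciita is the transcriptional coactivator that switches the whole set on, downstream of interferon gamma in most cells that are not professional antigen presenting cells, and class II expression by Lgr5+ stem cells and by enterocytes of the small intestine is well known.

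The genes of the classical chains and of the H2-DM chains lie together on chromosome 17 of GRCm38, H2-Aa at 17:34282744-34287823 on the minus strand, H2-Ab1 at 17:34257689-34269419, H2-Eb1 at 17:34305867-34316674, H2-DMa at 17:34119541-34139101 and H2-DMb1 at 17:34153072-34160230, all on the plus strand but the first. Ciita lies at 16:10480059-10528418 on the plus strand. The promoters of class II genes are known for an X box and a Y box, short elements that bind the RFX and NF-Y factors and together recruit Ciita. They are shown here because they are what the chain genes below are known to share. In 70-base windows from RefSeq (GRCm38.p6), read along the strand of the gene, capitals mark the matches to AGNAACNNA (the core of the X box) and GATTGG (the Y box):
H2-Eb1: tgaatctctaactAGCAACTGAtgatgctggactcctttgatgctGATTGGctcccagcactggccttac
H2-DMb1: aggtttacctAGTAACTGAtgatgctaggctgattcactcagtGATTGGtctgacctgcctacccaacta
H2-Aa: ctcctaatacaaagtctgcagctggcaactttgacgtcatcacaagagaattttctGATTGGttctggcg
The windows are chr17:34305762-34305831 for H2-Eb1, chr17:34153086-34153155 for H2-DMb1 and chr17:34287859-34287928 for H2-Aa.

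In H2-Eb1 the X box match began 92 bases and the Y box match 60 bases before the annotated start, with 23 bases between them. In H2-DMb1 they began 95 and 62 bases before the start that RefSeq gives (17:34153191), with 24 bases between, and lie within the longer gene span given above. H2-Aa held only the Y box letters, 49 bases before the start, and no match to the X box letters in its window. The letters are a narrow form of each element, so a window without a match may still hold an X box. The letters were chosen after these windows had been read. Of 32851 promoter windows of 300 bases, 16.9% held the X box letters and 16.1% the Y box letters on either strand, and 20 windows (0.0609%) held both on 1 strand with 15 to 30 bases between them. Besides H2-Eb1 and H2-DMb1, these 20 included H2-Eb2, H2-Oa and H2-Ob, further class II chains. Neither of the 2 windows listed for H2-DMa held the X box letters, and Cd74, H2-Ab1 and Ciita had no window in the table used.

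Cells were barcodes with at least 1000 UMIs (Lgr5+) or 500 UMIs (lineage-traced), at most 18000 UMIs and under 5% mitochondrial UMIs. A UMI is the tag of a single captured RNA molecule. The 8 libraries kept 2894 to 11423 cells with medians of 961 to 9336 UMIs, and any pair of libraries shared at most 0.449% of the barcodes of the smaller. By its share of marker UMIs a cell was called stem-like, progenitor-like or enterocyte-like, or 1 of the secretory classes (Paneth-like, enteroendocrine-like, goblet-like and tuft-like), and the members took no part in this. The progenitor markers were genes of dividing cells, such as Mki67, Top2a and Pcna, and were applied whatever the stem markers of a cell. Dividing stem cells may therefore be among the progenitor-like cells, and stem-like cells had a low share of these markers. Epithelial Epcam (975 to 2660 CPM) was present in every library, although 1 label text names livers. Hepatocyte Alb stood at 0.105 to 1.74 CPM, and the hepatocyte markers Alb, Ttr, Serpina1a and Apoh together at 29.8 to 142 CPM. CPM are UMIs of a gene per 1000000 UMIs of the cells in question. In lineage-traced WT replicate 2, 58.7% of the kept barcodes were left out as near-empty, against 1.38% to 18.9% in the other libraries. This was judged by a share of Paneth marker UMIs near that of empty droplets alone. In that library the share in empty droplets was 45.9%, so Paneth cells may be among the barcodes left out. In lineage-traced WT replicate 1 this share was 43.8%, against 11.5% and 18.1% in the lineage-traced Setdb1-KO replicates. The limits for near-empty and Paneth-like barcodes scale with this share, so they were higher in lineage-traced WT than in lineage-traced Setdb1-KO.

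In the Lgr5+ libraries Cd74 was highest in stem-like cells among the epithelial classes of each library, and 5 of the 7 members were lower in enterocyte-like cells in the test given below. Cd74 stood at 2355 and 1542 CPM in stem-like cells, at 1963 and 1245 CPM in progenitor-like cells and at 1294 and 524 CPM in enterocyte-like cells of WT replicates 1 and 2. In the Lgr5+ Setdb1-KO replicates the same order held at lower levels, with 365 and 787 CPM in stem-like, 228 and 533 CPM in progenitor-like and 181 and 474 CPM in enterocyte-like cells. The secretory classes had lower means over the WT libraries, with Cd74 at 705 and 542 CPM in enteroendocrine-like, 503 and 443 CPM in goblet-like and 417 and 155 CPM in tuft-like cells. Every Lgr5+ library kept the order stem-like, progenitor-like, enterocyte-like, while the ranges of neighbouring classes over the 2 WT libraries overlapped down to the enteroendocrine-like cells. The mean of Cd74 was 1948 ± 575 CPM in stem-like cells and 909 ± 545 CPM in enterocyte-like cells of Lgr5+ WT (SD, n = 2).

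**Figure D1:**
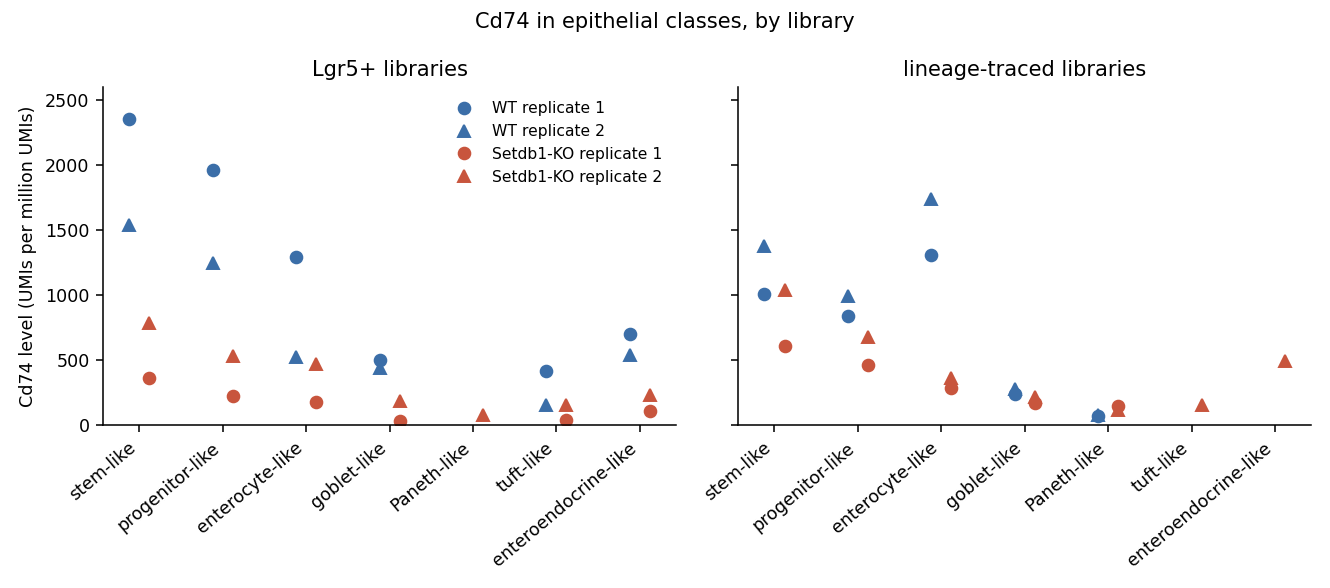
Cd74 level in CPM (vertical axis) in each epithelial class (horizontal axis), left for the Lgr5+ and right for the lineage-traced libraries. Each symbol is 1 library, blue for WT and red for Setdb1-KO, and classes with under 50 cells in a library are left out. Within each lineage-traced WT library the enterocyte-like cells (1312 and 1738 CPM) lie above the stem-like cells (1010 and 1377 CPM), whereas within each other library they lie below.

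In the lineage-traced WT libraries enterocyte-like cells came first, ahead of stem-like and then progenitor-like cells, with Cd74 at 1010 and 1377 CPM in stem-like, 842 and 990 CPM in progenitor-like and 1312 and 1738 CPM in enterocyte-like cells. The ranges of enterocyte-like and stem-like cells over these 2 libraries overlapped. The lineage-traced Setdb1-KO libraries kept the order of the Lgr5+ libraries, from 612 and 1038 CPM through 462 and 676 CPM to 288 and 363 CPM. In enterocyte-like cells the lineage-traced genotypes did not overlap and were far apart, while in stem-like cells the ranges of WT and Setdb1-KO overlapped. Goblet-like cells stood at 239 and 282 CPM (WT) and 173 and 217 CPM (Setdb1-KO). In Paneth-like cells, with Cd74 at 0 to 359 CPM, the members were compared with their levels in empty droplets. In every group 13 or 14 of 14 values (7 genes in 2 libraries) were at or under those levels. How much of the signal of these cells is free RNA could not be estimated, since they make the Paneth markers that scale the estimate.

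The same contrast of classes was tested with edgeR on the summed UMIs of each class in each library (quasi-likelihood F test, Benjamini-Hochberg adjustment over all genes, threshold 0.05). The library entered this test as a block, so the classes were compared within libraries. The comparisons of genotypes within an experiment set 2 libraries against 2, where an exact permutation test cannot give a p below 0.33. With so few libraries, all these fits borrow the spread of other genes. Very small p-values therefore do not rest on the spread between these libraries alone. In the Lgr5+ libraries, 5 of 7 members were lower in enterocyte-like than in stem-like cells, where 37.1% of all genes tested were lower. H2-Eb1, a beta chain, fell by 1.38 on the log2 scale (SE 0.11), H2-Aa, an alpha chain, by 1.06 (SE 0.12), H2-Ab1, its beta chain, by 0.91 (SE 0.10) and Cd74 by 0.86 (SE 0.09). Their adjusted p in edgeR lay between 2.96e-09 and 3.79e-07. H2-DMb1 fell by 0.41 on the log2 scale (SE 0.12, edgeR adjusted p = 0.00556), and 2 of 16 alternatives took its adjusted p above the threshold. H2-DMa, at 91.5 and 59.9 CPM in stem-like and 87.8 and 42.9 CPM in enterocyte-like cells of WT, did not pass (edgeR adjusted p = 0.807), nor did Ciita, at 4.99 and 3.62 CPM against 6.12 and 1.73 CPM (edgeR adjusted p = 0.391). H2-DMb1 has a near-identical copy, H2-DMb2, and how reads were divided between them is uncertain. The difference between the classes was not shown to depend on genotype. The edgeR test of the interaction called 0 of 7 members, where 0.147% of all genes were called, while 3 members had an unadjusted p under 0.05 and DESeq2 also called 0. H2-Ab1 had the smallest p there (log2 difference 0.48, SE 0.18, edgeR adjusted p = 0.673). Without Setdb1-KO replicate 1, 1 member was called (Cd74, 0.50).

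In the lineage-traced libraries this difference was not the same in both genotypes, by the test of the interaction given next, although fewer members passed that test in cells of closer marker content. The class effect of each genotype was taken from the fit with the interaction, a choice made after seeing the data. In the WT libraries 4 of 7 members were higher in enterocyte-like than in stem-like cells, where 24.9% of all genes were higher. H2-Ab1 rose by 1.50 (SE 0.17), H2-Aa by 1.14 (SE 0.14), H2-DMb1 by 1.04 (SE 0.32) and Cd74 by 0.50 (SE 0.12) on the log2 scale, with edgeR adjusted p of 8.98e-17, 4.85e-14, 0.00333 and 0.000113. H2-Eb1 did not share this rise (-0.18, SE 0.14, edgeR adjusted p = 0.266). In the Setdb1-KO libraries 4 of 7 members were lower in enterocyte-like than in stem-like cells, where 12.4% of all genes were lower. H2-Eb1 fell by 2.01, H2-Aa by 1.67, H2-Ab1 by 1.58 and Cd74 by 1.21 on the log2 scale (SE 0.23, 0.24, 0.33 and 0.15), with edgeR adjusted p from 2.53e-17 to 2.80e-05. With 1 class effect for both genotypes only H2-Eb1 was called lower (-0.87, SE 0.25, edgeR adjusted p = 0.00716), where 18.5% of all genes were lower. Without Setdb1-KO replicate 1 that fit called 0 members, and without Setdb1-KO replicate 2 it called 2, H2-Ab1 (1.23) and H2-DMb1 (0.94), both higher. In enterocyte-like cells limited to 1% to 4% of enterocyte marker UMIs it called 3, all lower, Cd74 (-0.70, edgeR adjusted p = 0.000666), H2-Aa (-0.66, 0.0252) and H2-Eb1 (-1.39, 2.38e-08), and the class effect of each genotype was not taken apart there. The classes of both genotypes were not alike in their markers, since enterocyte markers made up 4.62% and 4.46% of UMIs in the enterocyte-like cells of WT and 2.43% and 2.95% in those of Setdb1-KO.

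The interaction of genotype and class in the lineage-traced libraries was called for 5 of 7 members in edgeR, all lower, where 5.77% of all genes were lower. The log2 difference was -3.08 for H2-Ab1 (SE 0.36), -2.81 for H2-Aa (SE 0.27), -2.39 for H2-DMb1 (SE 0.68), -1.83 for H2-Eb1 (SE 0.27) and -1.72 for Cd74 (SE 0.19). In enterocyte-like cells limited to 1% to 4% of enterocyte marker UMIs, 2 of these calls were kept, H2-Aa (-2.20) and H2-Ab1 (-2.58), while Cd74 was at -0.68 (edgeR adjusted p = 0.143), H2-Eb1 at -0.90 (0.160) and H2-DMb1 at -2.26 (0.181). Without Setdb1-KO replicate 2 the 2 that were kept were Cd74 (-1.59) and H2-Aa (-3.36), while H2-Ab1 was at -1.65 (edgeR adjusted p = 0.163), H2-Eb1 at -1.79 (0.0579) and H2-DMb1 at -1.28 (0.771). The interaction of H2-Aa was called under all 14 alternatives of this test, and that of each other member under fewer.

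**Figure D2:**
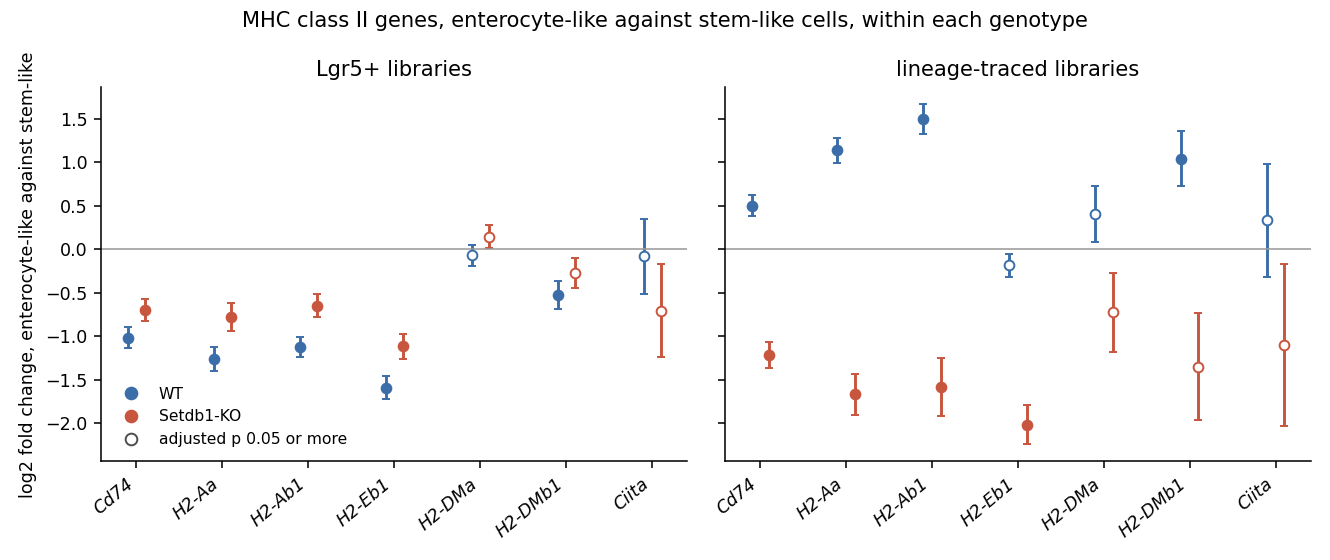
Log2 fold change of each member between enterocyte-like and stem-like cells (vertical axis), by gene (horizontal axis), for WT (blue) and Setdb1-KO (red) libraries, with 1 SE as error bars. Filled symbols have an edgeR adjusted p under 0.05. In the lineage-traced panel Cd74, H2-Aa, H2-Ab1 and H2-DMb1 of WT lie above 0 and those of Setdb1-KO below it, of which Cd74, H2-Aa and H2-Ab1 are filled in both genotypes.

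Along the content of enterocyte markers Cd74 was lowest in a middle bin in 7 of the 8 libraries. Cells of the stem-like, progenitor-like, enterocyte-like and unassigned classes with few secretory markers were divided by that content, from under 0.1% to 4% or more. In Lgr5+ WT replicate 1 Cd74 went from 2424 CPM in the lowest bin to 1159 CPM at 1% to 2% and to 1823 CPM at 4% or more (24 cells). In Lgr5+ WT replicate 2 it went from 1818 to 463 CPM at 2% to 4% and to 752 CPM. The 2 Lgr5+ Setdb1-KO libraries had their lowest levels at 100 and 399 CPM and ended at 290 and 763 CPM.

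The lineage-traced WT libraries ended above their starting level. Their Cd74 went from 1032 and 1348 CPM to 534 and 648 CPM at 0.5% to 1% of enterocyte markers and reached 1846 and 2940 CPM at 4% or more. The lineage-traced Setdb1-KO libraries ended low, with 243 and 261 CPM at 0.5% to 1%, then 43.4 CPM (9 cells with 1 Cd74 UMI) and 282 CPM (59 cells) at 4% or more. H2-Aa followed the same course, from 82.8 and 82.9 CPM at 0.5% to 1% to 473 and 660 CPM at 4% or more in lineage-traced WT, while in Lgr5+ WT it ended at 232 and 73.8 CPM, below its start at 317 and 219 CPM. These courses are a description over bins of 1 library each and were not tested.

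**Figure D3:**
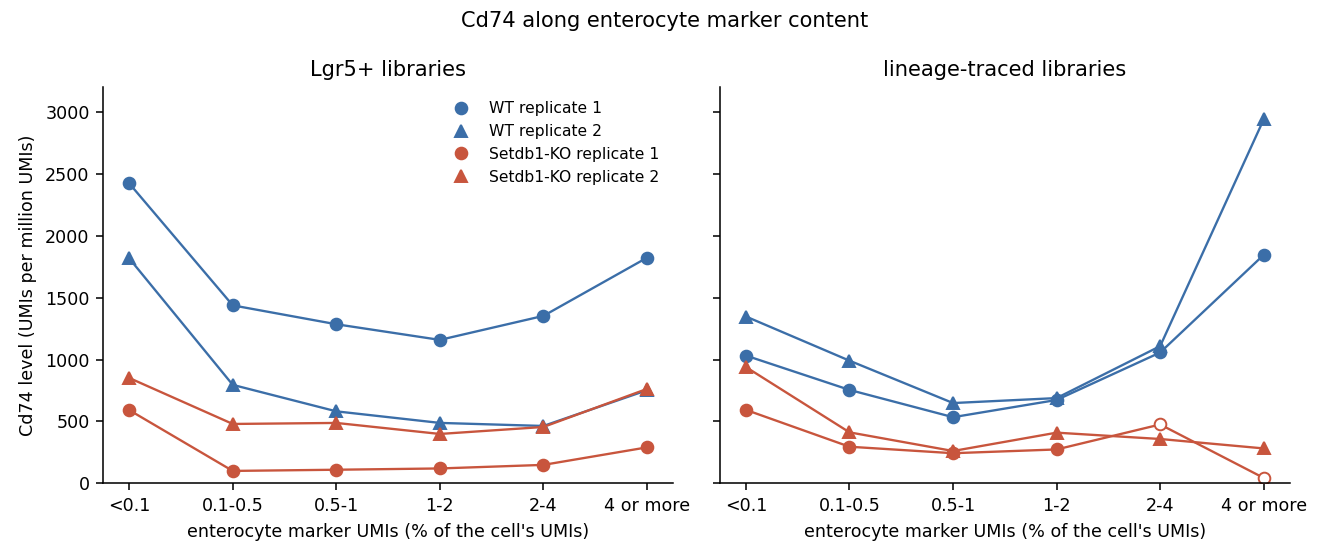
Cd74 level in CPM (vertical axis) in cells binned by the percent of their UMIs from enterocyte markers (horizontal axis, uneven bins), 1 line per library. Open symbols have under 20 cells. All 4 Lgr5+ libraries and both lineage-traced WT libraries are lowest in the middle bins and end higher, at 1846 and 2940 CPM in lineage-traced WT, and the lineage-traced Setdb1-KO libraries end at 43.4 and 282 CPM.

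Within stem-like cells of the Lgr5+ libraries and of the lineage-traced Setdb1-KO libraries, Cd74 was higher in cells with 1% or more of stem marker UMIs than in those with 0.2% to 0.5%, a difference that was not tested. In the Lgr5+ libraries it stood at 1646 and 996 CPM in WT cells with 0.2% to 0.5% of stem marker UMIs and at 2972 and 2237 CPM in those with 1% or more. In the Lgr5+ Setdb1-KO replicates the values were 190 and 573 CPM against 633 and 1475 CPM. The lineage-traced Setdb1-KO libraries stood at 529 and 972 CPM in the lowest bin and at 1037 and 1367 CPM in the highest, which held 28 and 36 cells. Between them, in cells with 0.5% to 1%, they stood at 897 and 1523 CPM, so that in replicate 2 the middle bin was above the highest. The lineage-traced WT libraries had closer values, at 982 and 1386 CPM in the lowest bin and 1117 and 1106 CPM in the highest, which held 20 and 4 cells.

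Setdb1 inactivation was compared with WT next, in each class and experiment on its own. The deleted exon lies outside the part of the transcript that 3′ counting reads, so the level of Setdb1 does not check the genotype. Setdb1 stood at 11.3 and 9.93 CPM in Lgr5+ WT and at 5.32 and 6.21 CPM in Lgr5+ Setdb1-KO, while the lineage-traced libraries had 6.11 and 4.21 CPM (WT) and 10.4 and 7.85 CPM (Setdb1-KO). Its lower level was called in Lgr5+ progenitor-like cells only (log2 -0.94, SE 0.17, edgeR adjusted p = 0.0399). The genotype difference was not shown to depend on class between stem-like and enterocyte-like cells (interaction, edgeR adjusted p = 0.887 in the Lgr5+ and 0.955 in the lineage-traced libraries), and progenitor-like cells were not in that test.

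In stem-like cells of the Lgr5+ libraries 6 of the 7 members were lower in Setdb1-KO, where 0.422% of all genes tested were lower. The 7 members had a median log2 fold change of -1.66, while all 11366 genes tested had a median of -0.01. Cd74 fell from 2355 and 1542 CPM to 365 and 787 CPM, which is 3.23-fold lower (log2 -1.69, SE 0.29, edgeR adjusted p = 0.0270). H2-Aa, the alpha chain of I-A, stood at 281 and 166 CPM in WT and at 36.6 and 76.3 CPM in Setdb1-KO (log2 -1.89, SE 0.29, edgeR adjusted p = 0.0141). Its partner H2-Ab1 stood at 318 and 195 CPM against 48.1 and 98.8 CPM (log2 -1.72, SE 0.28). The WT and Setdb1-KO libraries did not overlap for any of these chains.

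H2-Eb1, the beta chain of I-E, which in C57Bl6 mice lacks its alpha partner, stood at 356 and 210 CPM in WT and 51.5 and 117 CPM in Setdb1-KO (log2 -1.66, SE 0.31, edgeR adjusted p = 0.0393). The chains of the peptide exchange molecule were also lower. H2-DMa stood at 91.5 and 59.9 CPM against 20.8 and 38.9 CPM (log2 -1.23, SE 0.23) and H2-DMb1 at 59.2 and 37.7 CPM against 16.4 and 23.7 CPM (log2 -1.18, SE 0.20). Ciita, with 48, 42, 7 and 31 UMIs in all stem-like cells of the 4 libraries, stood at 4.99 and 3.62 CPM against 1.14 and 2.83 CPM and did not pass (log2 -0.93, SE 0.37, adjusted p = 0.305). It was lower in both Setdb1-KO than in both WT libraries, at a depth that gives few UMIs.

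The WT replicates differed among themselves too, and DESeq2 called 1 of 7 members (H2-DMb1) and edgeR without WT replicate 1 called 2 (H2-Aa and H2-Ab1). Over 14 alternatives the log2 fold change of Cd74 ranged from -2.36 to -1.24 and its adjusted p from 9.55e-39 to 0.218. Stem markers made up 0.878% and 0.750% of UMIs in the stem-like cells of WT and 0.653% and 0.569% in those of Setdb1-KO. In stem-like cells limited to 0.5% to 1% of stem marker UMIs, 4 members were called and Cd74 was lower by log2 -1.47 (edgeR adjusted p = 0.0259).

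The shares of cells with a UMI lay in the same order as the levels. With every cell thinned to 1000 UMIs, 79.4% and 59.9% of the stem-like cells of Lgr5+ WT held a Cd74 UMI, against 20.4% and 41.2% of those of Lgr5+ Setdb1-KO. For H2-Aa these shares were 23.7% and 13.9% against 3.70% and 7.61%, and for Ciita they were 0.156% to 0.549% in the same 4 libraries. Paneth-like cells are given for comparison and not as a measure of background. Their thinned shares of Cd74 were 21.0% and 22.4% in WT (43 and 27 cells) and 0% and 6.49% in Setdb1-KO (14 and 223 cells). Their median depths were 10631 to 14144 UMIs, against 3779 to 8104 UMIs in the stem-like cells. No cell was lost to the thinning, since its depth is the minimum set for cells. The shares of stem-like cells lay above those of Paneth-like cells in every library.

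**Figure D4:**
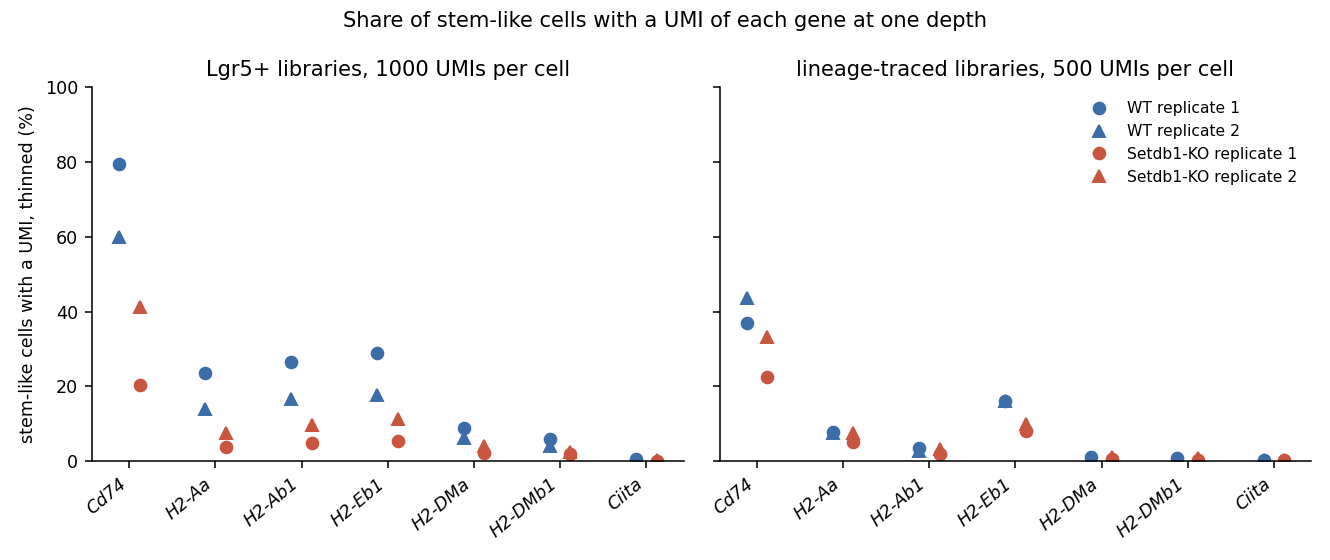
Percent of stem-like cells that hold a UMI of each member (vertical axis) after thinning each cell to 1000 UMIs (Lgr5+, left) or 500 UMIs (lineage-traced, right), by gene (horizontal axis). Each symbol is 1 library, blue for WT and red for Setdb1-KO. For Cd74 the Lgr5+ WT libraries lie at 79.4% and 59.9% and the Setdb1-KO libraries at 20.4% and 41.2%.

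The UMIs of the members were spread unevenly over the stem-like cells. Of these cells, 1.27% and 10.0% had no UMI of any member in Lgr5+ WT and 50.1% and 27.3% had none in Lgr5+ Setdb1-KO, against 0.00828% to 2.94% if the UMIs of a library were spread by depth alone. The top 10% of stem-like cells held 25.7% and 36.5% of the UMIs in WT and 60.0% and 40.3% in Setdb1-KO. H2-Aa was found more often in cells with a Cd74 UMI than in those without, given here for the Lgr5+ Setdb1-KO libraries. In Lgr5+ Setdb1-KO replicate 1, 35.3% of stem-like cells with a Cd74 UMI also held one of H2-Aa, against 1.11% of the cells without Cd74, and in replicate 2 it was 30.1% against 2.38%. Deeper cells are more likely to hold a UMI of either gene, so these shares are a description.

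In progenitor-like cells of the Lgr5+ libraries 5 of 7 members were lower in Setdb1-KO in edgeR, where 0.453% of all genes were lower. H2-Aa stood at 253 and 145 CPM in WT and at 18.6 and 49.1 CPM in Setdb1-KO (log2 -2.46, SE 0.37, adjusted p = 0.0196). H2-Eb1 fell by 2.07, Cd74 by 2.04, H2-Ab1 by 1.93 and H2-DMb1 by 1.63 on the log2 scale. H2-DMa (-1.61, SE 0.32, adjusted p = 0.0634) and Ciita (-1.19, SE 0.45, adjusted p = 0.298) did not pass. DESeq2 called 0 of 7 members here, and edgeR called 0 when WT replicate 1 or WT replicate 2 was left out. All 7 members had an unadjusted p under 0.05 with every library in.

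In enterocyte-like cells of the Lgr5+ libraries 0 of the 6 members tested passed in edgeR, where 0.313% of all genes were lower, although each of the 6 had an unadjusted p under 0.05. DESeq2 also called 0. Their log2 fold changes lay between -1.50 (H2-Aa, SE 0.43) and -0.98 (H2-DMb1, SE 0.35), with -1.46 for Cd74 (SE 0.41, adjusted p = 0.168), -1.34 for H2-Ab1 (SE 0.36), -1.29 for H2-Eb1 (SE 0.40) and -1.10 for H2-DMa (SE 0.32). WT replicate 2 (524 CPM of Cd74) lay close to Setdb1-KO replicate 2 (474 CPM), far below WT replicate 1 (1294 CPM). Over 14 alternatives, each library left out among them, the log2 fold change of Cd74 ranged from -2.35 to -0.72. Without the filter on low counts edgeR called 6 members, and the share over all genes in that fit is not reported here.

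**Figure D5:**
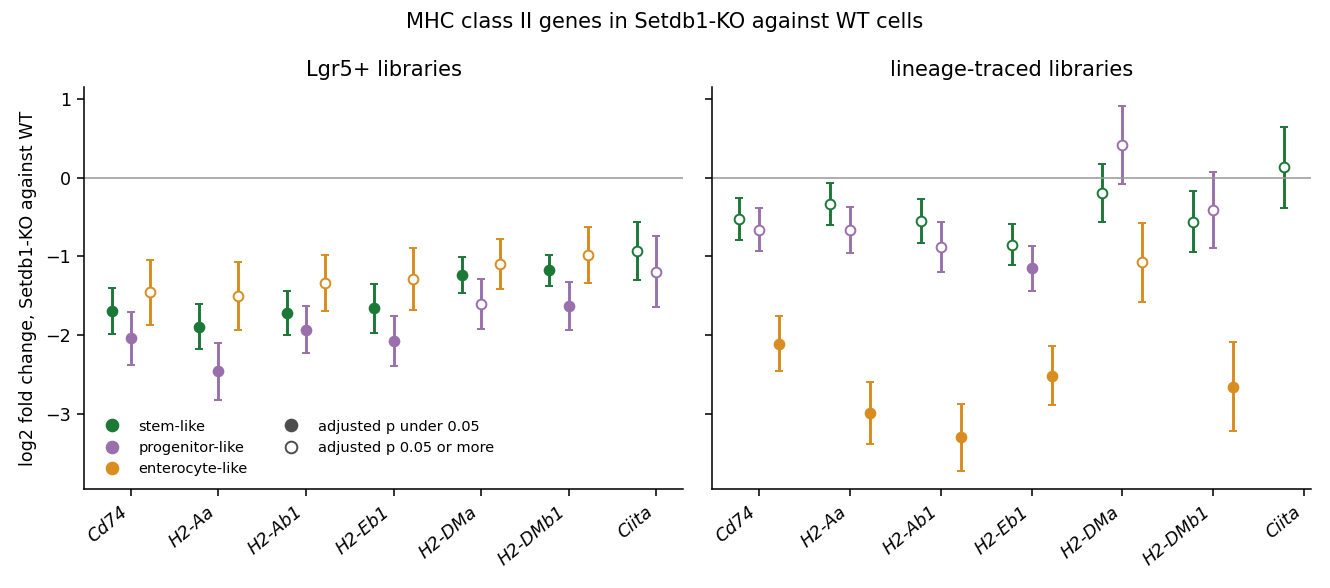
Log2 fold change of each member in Setdb1-KO against WT (vertical axis), by gene (horizontal axis), for stem-like (green), progenitor-like (purple) and enterocyte-like (orange) cells, with 1 SE as error bars. Filled symbols have an edgeR adjusted p under 0.05, and members that did not reach the filter on low counts are not drawn. In the Lgr5+ libraries all values lie between -2.46 and -0.93, and in the lineage-traced libraries the enterocyte-like values reach -3.30.

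In stem-like cells of the lineage-traced libraries 0 of 7 members passed in edgeR, where 1.12% of all genes were lower, and 1 member had an unadjusted p under 0.05. Cd74 stood at 1010 and 1377 CPM in WT and at 612 and 1038 CPM in Setdb1-KO (log2 -0.53, SE 0.27, adjusted p = 0.598). H2-Eb1 stood at 339 and 342 CPM against 167 and 214 CPM (log2 -0.85, SE 0.26, adjusted p = 0.0888), and H2-Aa at 162 and 177 CPM against 113 and 157 CPM. The genotypes did not overlap for H2-Eb1 and H2-Aa, and they overlapped for Cd74. DESeq2 called 0 members too. Setdb1-KO replicate 2 lay nearer to WT for every one of these genes, and without it edgeR called 3 members (Cd74, H2-Ab1 and H2-Eb1). After thinning to 500 UMIs, 37.1% and 43.6% of the stem-like cells of WT and 22.6% and 33.1% of those of Setdb1-KO held a Cd74 UMI.

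Whether the smaller fold in these stem-like cells differed from that of the Lgr5+ libraries depended on which cells, genes and libraries entered the test. Over all stem-like cells a test of the interaction of genotype and experiment over all 8 libraries called 0 of 7 members, where 0.722% of all genes were called, while 5 of 7 members had an unadjusted p under 0.05 and DESeq2 called 0. The log2 difference was 1.63 for H2-Aa (SE 0.41, edgeR adjusted p = 0.0808) and 1.23 for Cd74 (SE 0.44, adjusted p = 0.348). Without the filter on low counts Cd74, H2-Aa and H2-Ab1 were called, and without Lgr5+ Setdb1-KO replicate 2 the same 3 (1.86, 2.24 and 1.82). The stem-like cells of the 2 sorts had unequal stem marker content, 0.348% to 0.407% of UMIs in the lineage-traced and 0.569% to 0.878% in the Lgr5+ libraries, and in lineage-traced stem-like cells limited to 0.5% to 1% the log2 fold change of Cd74 was -0.04 (SE 0.23). In stem-like cells of both sorts limited in that way the interaction was called for 3 members, Cd74 (1.54), H2-Aa (1.72) and H2-Ab1 (1.83), with edgeR adjusted p of 0.00578, 0.00244 and 0.0305. Sort, depth and reporter differ together between the experiments and cannot be told apart.

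Progenitor-like cells of the lineage-traced libraries had 1 of the 6 members tested called, H2-Eb1, where 1.06% of all genes were lower. It stood at 246 and 260 CPM in WT and at 92.5 and 131 CPM in Setdb1-KO (log2 -1.15, SE 0.29, edgeR adjusted p = 0.00598), and 7 of 13 alternatives called it. Without WT replicate 1 or WT replicate 2 edgeR called 0 members, and without Setdb1-KO replicate 2 it called 2, H2-Eb1 and Cd74 (-1.07). Cd74 was at 842 and 990 CPM against 462 and 676 CPM (log2 -0.66, SE 0.27, adjusted p = 0.532).

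In lineage-traced enterocyte-like cells 5 of the 6 members tested were lower in Setdb1-KO. These calls stand beside a high background, since 16.5% of all genes were lower in this class. H2-Ab1 stood at 200 and 190 CPM in WT and at 36.0 and 13.3 CPM in Setdb1-KO, which is 9.85-fold lower (log2 -3.30, SE 0.43, edgeR adjusted p = 3.07e-09). H2-Aa stood at 318 and 372 CPM against 24.0 and 44.4 CPM, or 7.94-fold lower (log2 -2.99, SE 0.39). H2-DMb1 (log2 -2.65, SE 0.56), H2-Eb1 (log2 -2.51, SE 0.37) and Cd74 (log2 -2.11, SE 0.35) were lower as well, with edgeR adjusted p of 0.000196, 1.72e-07 and 2.02e-06. For each of these 5 genes both Setdb1-KO libraries lay below both WT libraries. DESeq2 called the 4 other than H2-DMb1. The call of H2-DMb1 was lost without WT replicate 1 or Setdb1-KO replicate 2, and that of Cd74 without WT replicate 2.

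H2-DMa, at 28.3 and 16.4 CPM against 24.0 and 7.77 CPM, overlapped between the genotypes and did not pass (log2 -1.07, SE 0.50, adjusted p = 0.101). The median over the 6 members tested was -2.58 on the log2 scale and that of all 5360 genes tested was -0.01. The Setdb1-KO class held 81 and 246 cells, against 1225 and 265 cells in WT. Its H2-Ab1 level rests on 6 and 12 UMIs, and droplets with free RNA held H2-Ab1 at 29.8 and 21.1 CPM in these 2 libraries. In cells limited to 1% to 4% of enterocyte markers the same 5 members were called, with Cd74 at log2 -1.17, H2-Aa at -2.45 and H2-Ab1 at -2.95. With the estimated free RNA subtracted, Cd74 was at -2.27 and 5 members were called. After thinning, 43.5% and 47.8% of the enterocyte-like cells of WT and 9.32% and 16.0% of those of Setdb1-KO held a Cd74 UMI. For comparison, and not as a measure of background, 3.96% to 7.40% of the Paneth-like cells of these libraries did. The median depths of the Paneth-like cells were 1152 to 8504 UMIs against 1026 to 3065 UMIs.

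The genotype effect in enterocyte-like cells was larger in the lineage-traced than in the Lgr5+ libraries for 1 member in a test of the interaction, where 7.29% of all genes were called lower. This was H2-Ab1, with a log2 difference of -2.04 (SE 0.59, edgeR adjusted p = 0.0269), and DESeq2 called 0 members. The count was 0 without Lgr5+ WT replicate 2, lineage-traced WT replicate 1 or either lineage-traced Setdb1-KO library, 4 without Lgr5+ WT replicate 1 and 3 without Lgr5+ Setdb1-KO replicate 1. Cd74 (edgeR adjusted p = 0.450) and H2-Aa (edgeR adjusted p = 0.104) did not pass.

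The proportions of the members to Cd74 were also set side by side. Per 100 Cd74 UMIs, stem-like cells of the 4 Lgr5+ libraries held 9.69 to 11.9 UMIs of H2-Aa, 12.5 to 13.5 UMIs of H2-Ab1 and 13.6 to 15.1 UMIs of H2-Eb1, although Cd74 itself spanned 365 to 2355 CPM. The other members were higher relative to Cd74 in Setdb1-KO, with H2-DMa at 3.88 and 3.89 UMIs in WT against 5.69 and 4.95 UMIs, H2-DMb1 at 2.52 and 2.44 UMIs against 4.49 and 3.01 UMIs, and Ciita at 0.212 and 0.235 UMIs against 0.311 and 0.359 UMIs. The lineage-traced stem-like cells held 12.9 to 18.5 UMIs of H2-Aa, 6.17 to 7.27 UMIs of H2-Ab1 and 20.6 to 33.5 UMIs of H2-Eb1. In lineage-traced WT enterocyte-like cells H2-Aa reached 24.2 and 21.4 UMIs and H2-Ab1 15.3 and 10.9 UMIs per 100 Cd74 UMIs. The ratio of H2-Ab1 to Cd74 was lower in the stem-like cells of the lineage-traced than of the Lgr5+ libraries in every library, and that of H2-Eb1 higher. These ratios were not tested.

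In goblet-like cells the chains of I-A had unequal differences between genotypes. H2-Ab1 stood at 153 and 124 CPM in Lgr5+ WT and at 61.3 and 73.2 CPM in Lgr5+ Setdb1-KO goblet-like cells. H2-Aa stood at 55.3 and 48.3 CPM against 4.84 and 17.0 CPM in the same cells. Both chains were lower in both Setdb1-KO libraries, and this class was not tested.

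Cells that carry class II in the lamina propria, B cells, dendritic cells and macrophages, were looked for by 37 markers of immune cells. Barcodes with at least 3 UMIs of these markers, at 0.1% or more of their UMIs, had been kept out of the classes named below. Low levels of the markers in these classes were thus partly fixed in advance. Barcodes called immune numbered 26 and 26 in Lgr5+ WT (of 4768 and 6133 kept) and 8 and 7 in Lgr5+ Setdb1-KO (of 2894 and 11423 kept). In the lineage-traced libraries they numbered 6 and 0 (WT) and 0 and 8 (Setdb1-KO). Their summed level in stem-like cells was 8.11 and 8.54 CPM in Lgr5+ WT and 2.44 and 5.02 CPM in Lgr5+ Setdb1-KO, and in enterocyte-like cells 13.9 and 12.8 CPM in lineage-traced WT and 5.99 and 2.22 CPM in lineage-traced Setdb1-KO. In both classes the immune markers were lower in Setdb1-KO, as the members were. The enterocyte-like levels rest on few UMIs, 26 and 7 in lineage-traced WT and 1 and 2 in lineage-traced Setdb1-KO. Between 15 and 19 of the 37 markers were detected in the stem-like cells of Lgr5+ WT and 8 to 11 in those of Lgr5+ Setdb1-KO, and between 1 and 13 in the enterocyte-like cells of the lineage-traced libraries. The defining markers Csf1r (macrophages) and Flt3 (dendritic cells) were at 0 in the stem-like, progenitor-like and enterocyte-like cells of all 8 libraries, and Cd79a, Ms4a1, Itgax and Xcr1 had at most 1 UMI per class over all libraries. C1qa of macrophages had at most 1 and Cd3e of T cells at most 2 UMIs per class, and the pan-leukocyte gene Ptprc had 4, 8 and 5 UMIs in stem-like, progenitor-like and enterocyte-like cells of all libraries together. These named markers are a chosen part of the 37. The summed level in stem-like cells of Lgr5+ WT rests on 78 and 99 UMIs, most of them of markers not named here. The list for B cells and plasma cells made up 4.05 and 5.26 CPM of the summed level in stem-like cells of Lgr5+ WT. Without every cell that held an immune marker UMI, the members called in each comparison were as many as before.

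Free RNA was measured in the droplets with 50 to 300 UMIs. Cd74 stood there at 583 and 393 CPM in Lgr5+ WT, 49.8 and 143 CPM in Lgr5+ Setdb1-KO, 157 and 304 CPM in lineage-traced WT and 212 and 149 CPM in lineage-traced Setdb1-KO. Scaled by the Paneth marker UMIs of each class, this came to 0.373% to 4.88% of the Cd74 UMIs of stem-like cells and to 0.413% to 8.32% of those of enterocyte-like cells. Barcodes with a Paneth share of at least 0.5 times that of empty droplets had been kept out of these classes. A low estimate was thus partly fixed in advance, also where the estimated free RNA was subtracted.

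Other genes of the class II pathway were measured beside the members, 32 of 36 names listed. Some of these names are old and new symbols of the same gene (March1 and Marchf1, March8 and Marchf8). In stem-like cells of the Lgr5+ libraries 22 of them were tested, and Irf1, an interferon-induced transcription factor that acts on Ciita, was the only one called between genotypes, where 0.422% of all genes were lower. At an unadjusted p under 0.05 in edgeR were 7 of the 22, against 1565 of all 11366 genes, and DESeq2 called 0. Irf1 stood at 65.1 and 50.2 CPM in WT and at 37.2 and 37.1 CPM in Setdb1-KO (log2 -0.58, SE 0.11, edgeR adjusted p = 0.0459). In progenitor-like cells it was again Irf1 alone, which DESeq2 called as well (log2 -0.68, SE 0.12, edgeR adjusted p = 0.0454), and in enterocyte-like cells 0 of 21 passed in edgeR, with 4 at an unadjusted p under 0.05 and 0 called by DESeq2. The median of the 22 genes in stem-like cells was -0.11 on the log2 scale, against -1.66 for the members and -0.01 for all genes. Within them the 7 genes of the interferon gamma pathway had a median of -0.42 in stem-like and -0.40 in progenitor-like cells, with 5 of the 7 at an unadjusted p under 0.05 in edgeR in each class (in progenitor-like cells 1575 of all 11467 genes were). The RFX and NF-Y subunits, the factors of the X and Y boxes, were 7 genes with Creb1, of which 7, 7 and 6 could be tested in stem-like, progenitor-like and enterocyte-like cells of the Lgr5+ libraries and 4, 4 and 3 in those of the lineage-traced libraries. Those tested had 0 calls between genotypes in edgeR or DESeq2, with at most 1 gene of the list at an unadjusted p under 0.05 in edgeR in each.

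In the lineage-traced libraries 0 of 18 pathway genes passed in edgeR in stem-like cells and 0 of 15 in progenitor-like cells, each time with 1 gene at an unadjusted p under 0.05 and 0 called by DESeq2. The interferon gamma pathway genes tested there had median log2 fold changes of 0.02 in stem-like, -0.04 in progenitor-like and -0.28 in enterocyte-like cells (6, 5 and 6 genes). In enterocyte-like cells 4 of 16 were lower in Setdb1-KO, where 16.5% of all genes were lower. These were Jak2, a kinase of the interferon gamma receptor (log2 -1.92, SE 0.52), Ctss, the cathepsin that trims the invariant chain (-0.94, SE 0.36), Lgmn, a lysosomal protease (-2.79, SE 0.85), and March8, a ubiquitin ligase that removes class II from the surface (-1.50, SE 0.44). Their edgeR adjusted p were 0.00420, 0.0453, 0.0112 and 0.00738, and DESeq2 called none of the 3 to which it gave an adjusted p (all but Lgmn). March8 was also lower in the interaction of genotype and class (-2.09, SE 0.60), as were Jak2 (-1.88) and Ctsl (-3.00), while Ifi30, a lysosomal thiol reductase, was higher (0.85), where 5.77% of all genes were lower and 4.62% higher. DESeq2 called 0 pathway genes in that interaction.

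Between the classes of the Lgr5+ libraries most pathway genes went the other way from the members. From stem-like to enterocyte-like cells 14 of 22 pathway genes rose and 6 fell, while 5 of 7 members fell, where 33.4% of all genes rose and 37.1% fell. Among those that rose on the log2 scale were the interferon gamma receptor chains Ifngr1 (0.62) and Ifngr2 (0.95), Jak2 (0.76), Irf1 (0.32) and Socs1 (0.90), and also the lysosomal genes Ctss (0.96), Ctsh (0.93), Ifi30 (1.00), Ctsb (0.47) and Ctsd (0.52), the RFX subunit Rfxank (1.58), Nfyc (0.65) and March8 (1.27). Ctsl fell by 1.01 and Lgmn by 1.43, and Nfya by 1.10, Creb1 by 0.77, Nfyb by 0.59 and Rfxap by 0.38. In the lineage-traced libraries 6 of 19 rose and 0 fell in edgeR, where 19.9% of all genes rose and 18.5% fell, and DESeq2 called 3 (March8, Ctss and Ifngr2). The 6 were March8 (1.83), Ctss (1.21), Jak2 (1.14), Ifngr2 (0.86), Ctsh (0.79) and Ifi30 (0.64), all with an edgeR adjusted p under 0.05.

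The genes most like Cd74 were sought over sums of at least 50 cells of a class in a library, by Pearson's r of log2(CPM + 1). The members were taken at any level, and other genes at a mean of at least 50 CPM (2450 genes compared in the Lgr5+ libraries). Over 25 sums of the Lgr5+ libraries r was 0.98 for H2-Eb1, 0.97 for H2-Aa, 0.94 for H2-DMa, 0.89 for H2-DMb1, 0.85 for H2-Ab1 and 0.78 for Ciita. The 5 other genes with the highest r were Psmb8 (0.82), Gpx2 (0.80), Nfkbia (0.79), Gcat (0.77) and Creg1 (0.77). Psmb8 is an interferon-inducible subunit of the immunoproteasome and stood at 288 and 216 CPM in the stem-like cells of WT and at 116 and 170 CPM in those of Setdb1-KO. Over 22 sums of the lineage-traced libraries r was 0.96 for H2-Aa, 0.92 for H2-Eb1, 0.85 for H2-Ab1, 0.81 for H2-DMb1, 0.64 for H2-DMa and 0.61 for Ciita, and the others were Relb (0.93), Mt1 (0.91), 2210407C18Rik (0.89), Tm4sf20 (0.88) and Glrx (0.87). The sums share libraries and depths, and these values describe likeness of pattern alone.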

How the data were processed

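GFP+ ileal crypt cells were profiled with 10x Chromium 3′ chemistry (v3.1). The authors deposited, for each of the 8 libraries, UMI counts per gene feature and barcode. Per the submitters' processing notes they used Cell Ranger 6.1.1 and Seurat 5.0.3 with mm10, and the labels number the 2 libraries of each group as replicates, which the study describes as biological. Other data types of the series were not used here.

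From the counts, cells were kept at 1000 UMIs or more (Lgr5+) or 500 or more (lineage-traced), at most 18000 UMIs and under 5% mitochondrial UMIs. Cells were assigned in a fixed order by marker shares of UMIs, namely Paneth at least 10% and 1.3 times the share in empty droplets, goblet 5%, enteroendocrine 1%, tuft 0.5%, enterocyte 1%, progenitor 0.3% and stem 0.2%. Barcodes below the Paneth rule but with a Paneth share of at least 0.5 times that of empty droplets were set aside as near-empty. Those with at least 3 immune marker UMIs, at 0.1% or more of their UMIs, were kept out of the stem-like, progenitor-like and enterocyte-like classes. No doublet caller was run, and cells that met several secretory or enterocyte rules were left out. Counts were summed over cells of a class in a library and tested with the edgeR 4.0.16 quasi-likelihood F test (filterByExpr, TMM, two-sided, R 4.3.3, limma 3.58.1), with the library as a block in comparisons of classes. DESeq2 1.42.0, no TMM scaling, no filter, other cell and class limits, the replicate number as a block, and each library left out were the alternatives. A further 4 were chosen after seeing the data: free RNA subtracted, enterocyte-like cells of 1% to 4% and stem-like cells of 0.5% to 1% marker UMIs, and class effects per genotype. Python 3.11.15, NumPy 2.4.6, SciPy 1.17.1, pandas 2.3.3 and matplotlib 3.10.9 were used for the rest. The fits were tested on simulated data with known fold changes, the same spread for every gene and libraries that otherwise differed in depth alone. That setting is simpler than these data, so it does not show how the fits behave at the spread between these libraries. The genes named were all 7 members, pathway genes past the threshold, the 5 other genes most like Cd74, and Setdb1. The members and lists were chosen with earlier results of these data known. Depth limits Ciita most, with 7 to 48 UMIs in the stem-like cells of an Lgr5+ library. Barcodes per library and UMIs per class set the precision of each level. Some single genes of the lists are not reported here.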

Additional observations from a re-analysis of the deposited data

Results flagged for a closer look

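The fold change between enterocyte-like and stem-like cells differed between Setdb1-KO and WT in the lineage-traced libraries for 5 members, all lower, by the edgeR test of the interaction, where 5.77% of all genes were lower. The log2 difference (Setdb1-KO minus WT) was -1.72 for Cd74 (adjusted p = 2.49e-16), -2.81 for H2-Aa (adjusted p = 2.90e-21), -3.08 for H2-Ab1 (adjusted p = 1.61e-14), -1.83 for H2-Eb1 (adjusted p = 4.02e-09) and -2.39 for H2-DMb1 (adjusted p = 0.00768). In enterocyte-like cells with 1% to 4% of enterocyte marker UMIs 2 of the 5 were called, and without Setdb1-KO replicate 2 also 2. The fold change between genotypes in enterocyte-like cells differed between the lineage-traced and the Lgr5+ libraries for H2-Ab1, with a log2 difference of -2.04 (edgeR adjusted p = 0.0269), where 7.29% of all genes were lower. DESeq2 called 0 members, edgeR called 0 in enterocyte-like cells with 1% to 4% of marker UMIs, and H2-Ab1 was called under 11 of 17 alternatives. Leaving out Lgr5+ WT replicate 2, lineage-traced WT replicate 1 or either lineage-traced Setdb1-KO library gave 0 calls.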

How the results depend on the processing

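The 29 calls of members kept their sign under every alternative run, while 23 of all 81 member values, none of them called, changed sign under at least 1. Of the comparisons of 45 named values with their alternatives, 528 kept direction and side of the threshold, 55 lost the call, 54 gained one and 0 reversed a call. The numbers of members called moved as follows, and the cause was not tested. With DESeq2 the count was 1 instead of 6 in Lgr5+ stem-like cells, 0 instead of 5 in Lgr5+ progenitor-like cells, and 0 instead of 1 both in lineage-traced progenitor-like cells and for the interaction with experiment in enterocyte-like cells. Without TMM scaling it was 1 instead of 0 in lineage-traced stem-like cells and for the interaction with experiment in stem-like cells. Without the filter on low counts it was 6 instead of 0 in Lgr5+ enterocyte-like cells, 0 instead of 1 in lineage-traced progenitor-like cells, and 3 instead of 0 and 3 instead of 1 for the interactions with experiment in stem-like and enterocyte-like cells. With doubled class limits it was 0 instead of 1 in lineage-traced progenitor-like cells and 2 for each interaction with experiment. With free RNA subtracted it was 0 in lineage-traced progenitor-like cells. With 1% to 4% of enterocyte markers it was 3 instead of 1 for the lineage-traced classes, 2 instead of 5 for their interaction with genotype, and 0 instead of 1 for the interaction with experiment in enterocyte-like cells, and with 0.5% to 1% of stem markers 3 instead of 0 for that in stem-like cells. The lineage-traced classes gave 4 calls in WT and 4 in Setdb1-KO taken alone. Leaving out 1 library at a time gave 2 to 7 calls in Lgr5+ stem-like, 0 to 6 in Lgr5+ progenitor-like and 0 to 6 in Lgr5+ enterocyte-like cells, 0 to 3, 0 to 2 and 4 to 6 in the same classes of the lineage-traced libraries, 4 to 5 for the Lgr5+ classes, 0 to 1 for their interaction with genotype, 0 to 2 for the lineage-traced classes, 2 to 5 for their interaction, and 0 to 3 and 0 to 4 for the interactions with experiment in stem-like and enterocyte-like cells. A group left with 1 library was assumed to vary like the others. With the replicate number as a block, 6, 6 and 5 members were called in stem-like, progenitor-like and enterocyte-like cells of the Lgr5+ libraries and 1, 1 and 5 in those of the lineage-traced libraries. Deviations of libraries with the same number correlated at 0.0414 to 0.140 over genes, with 2 pairs in each experiment, and the labels tie nothing to the number. Over all genes the calls moved more, for example from 107 to 542 without the filter and 656 with the block in Lgr5+ stem-like cells, and from 1427 to 384 with DESeq2 in lineage-traced enterocyte-like cells. Leaving out TMM moved the median over all genes by more than 0.1 (log2) for the lineage-traced enterocyte-like cells (-0.15), the classes (-0.25 in Lgr5+ and -0.23 in lineage-traced), the lineage-traced interaction (-0.12) and those with experiment (0.11 and -0.22). Thinning lowered the mean share of stem-like cells with a Cd74 UMI from 91.7% to 69.7% (Lgr5+ WT), 51.2% to 30.8% (Lgr5+ Setdb1-KO), 67.7% to 40.4% (lineage-traced WT) and 49.6% to 27.9% (lineage-traced Setdb1-KO), and that of enterocyte-like cells from 70.5% to 39.0% (Lgr5+ WT), 25.1% to 14.4% (Lgr5+ Setdb1-KO), 67.7% to 45.7% (lineage-traced WT) and 27.6% to 12.7% (lineage-traced Setdb1-KO), with the order of the genotypes the same in each experiment.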
